A study of Mus musculus with 12 samples.

Results

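The 6 genes described here encode the angiopoietin, Tie and apelin pathways of blood vessels: the ligands Angpt1 and Angpt2, their receptor Tek, the related receptor Tie1, the peptide hormone Apln and its receptor Aplnr. They were chosen by name from the 52550 genes of the count table, for their place in these pathways, and all 6 were among the 15885 protein-coding genes that passed the filter on low counts. The study asked how the loss of 1 Adm allele alters the response of the newborn mouse lung to lipopolysaccharide (LPS), a component of the bacterial outer membrane used here to model bronchopulmonary dysplasia. Adm encodes adrenomedullin, a peptide that dilates vessels and promotes their growth. Bulk RNA sequencing was performed on 12 whole lungs in 4 groups of 3. Wild-type mice (WT, Adm+/+) and Adm+/- mice, both labelled as C57Bl/6J, were injected intraperitoneally with PBS or with LPS at 6 mg/kg, in 3 daily doses from postnatal day 3 to day 5, and the lungs were collected on day 5, 6 h after the last dose. The Adm+/- mice came from a line made on a 129/SvEv background and backcrossed to C57BL/6J, and they lack 1 copy of Adm in every cell, since mice with no copy die before birth. In a whole lung, fewer cells of a type and less RNA per cell cannot be told apart.

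As background, Tek (also called Tie2) is a receptor tyrosine kinase of endothelial cells. Angpt1, made mainly by perivascular and other mesenchymal cells, activates it and keeps vessels quiet and tight, whereas Angpt2, stored in endothelial cells and released from them, can act as its antagonist, and Tie1 binds no angiopoietin on its own but modulates Tek. Apelin signals through Aplnr, a G protein-coupled receptor that promotes vessel growth and dilation. In the lung, Apln marks the aerocytes, the broad capillary cells of gas exchange, and Aplnr marks the general capillary cells that lie among them.

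On the mm10 assembly, Tek (ENSMUSG00000006386) lies at chr4:94739289-94874976 on the plus strand and Tie1 (ENSMUSG00000033191) at chr4:118471191-118490061 on the minus strand. Angpt1 (ENSMUSG00000022309) lies at chr15:42424723-42676977 and Angpt2 (ENSMUSG00000031465) at chr8:18690263-18741562, both on the minus strand. Apln (ENSMUSG00000037010) lies at chrX:48025146-48034853 on the minus strand, and Aplnr (ENSMUSG00000044338) at chr2:85136225-85139923 on the plus strand, where it consists of 1 exon. Overlapping genes limit the counting of both angiopoietins. The antisense gene Gm17473 shares 737 bp of exon with Angpt1 on the opposite strand, but it collected 40 counts over the 12 libraries against 10016 for Angpt1. Angpt2 lies within Mcph1, a gene of chromosome condensation on the opposite strand, with no shared exon base, and collected 5040 counts against 8082 for Mcph1. Whether the counting used strand is not given in the sources used here, so unspliced Mcph1 reads within Angpt2 exons cannot be told apart from Angpt2 reads.

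Of the 6 genes, 3 had a promoter in the RefSeq table of GRCm38.p6: Tek, Tie1 and Apln. They are shown so that the 2 genes of the Tie receptor family can be set beside the apelin ligand gene. Each sequence runs 5′ to 3′ on the strand of the gene from 250 bases before the RefSeq start to 50 bases after it. Capitals mark exact matches, on either strand, to 2 motifs of endothelial transcription factor families, the ETS motif AGGAAG and, for the GATA family, AGATAA.
Tek, chr4:94739039-94739338, plus strand: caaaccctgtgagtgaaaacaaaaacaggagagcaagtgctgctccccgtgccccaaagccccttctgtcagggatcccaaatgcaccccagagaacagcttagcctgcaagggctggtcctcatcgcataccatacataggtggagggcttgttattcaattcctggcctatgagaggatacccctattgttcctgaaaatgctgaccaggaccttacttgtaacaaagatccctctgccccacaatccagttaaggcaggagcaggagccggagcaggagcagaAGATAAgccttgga
Tie1, chr4:118489800-118490099, minus strand: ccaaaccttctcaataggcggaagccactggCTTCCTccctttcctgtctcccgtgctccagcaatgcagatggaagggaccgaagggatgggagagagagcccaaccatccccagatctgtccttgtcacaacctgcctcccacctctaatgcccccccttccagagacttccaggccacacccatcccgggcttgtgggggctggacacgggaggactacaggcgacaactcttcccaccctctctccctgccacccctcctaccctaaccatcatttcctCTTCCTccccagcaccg
Apln, chrX:48034804-48035103, minus strand: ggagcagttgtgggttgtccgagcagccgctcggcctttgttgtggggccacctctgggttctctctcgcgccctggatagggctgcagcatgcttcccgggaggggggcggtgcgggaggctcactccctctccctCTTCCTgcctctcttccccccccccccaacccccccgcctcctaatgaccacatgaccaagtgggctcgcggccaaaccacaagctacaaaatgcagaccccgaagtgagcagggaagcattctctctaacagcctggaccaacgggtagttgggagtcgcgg
The Tek promoter held 1 GATA match, starting 36 bases after the start, and no ETS match. The Tie1 promoter held 2 ETS matches, read on the opposite strand as CTTCCT, and the Apln promoter held 1. Such matches were common, since 35.4% of the 32851 promoters in the table held an ETS match and 11.2% a GATA match. No match was found in the 3 promoters for a forkhead motif (TGTTTAC, 3.65% of promoters) or a hypoxia-inducible factor motif (ACGTG, 19.6%). None of the motifs overlapped another in these windows.

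The libraries held 22382535 to 38062873 counts. The WT PBS library 5 and the Adm+/- PBS library 6 stood apart, since protein-coding genes took 77.8% and 80.1% of their counts and 84.3% to 87.6% elsewhere, and with 16.6% and 13.3% of counts in the noncoding gene Gm26917 against 5.42% to 7.4%. Adm itself was low, at a mean of 5.21 CPM (TMM-scaled counts relative to library size) in WT PBS, 6.79 in WT LPS, 3.69 in Adm+/- PBS and 4.65 in Adm+/- LPS. It was lower in Adm+/- than in WT lungs by a log2 fold change of -0.50 in PBS and -0.55 in LPS, which did not pass the test (edgeR's quasi-likelihood test, adjusted p = 0.999 and 0.480), and the ranges of the genotypes overlapped. Marker genes of tissues outside the lung parenchyma were high in WT LPS libraries. The summed level of 10 skeletal muscle genes was 737.5 to 2037 CPM in them against 18.9 to 56.7 CPM in the other 9 libraries, and that of the 6 squamous epithelium genes was 23.1 to 2743 CPM against at most 36.95 CPM.

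Levels of the 6 genes were first ordered per kilobase of exon, the scale on which genes of unequal length can be compared. In WT PBS lungs, Tie1 was highest at 90.8 ± 27.9 CPM per kb (SD, n = 3), followed by Tek at 45.5 ± 3.94, Aplnr at 31.6 ± 4.94, Apln at 23.5 ± 2.67, Angpt1 at 7.17 ± 2.45 and Angpt2 at 5.49 ± 0.333. On their means the receptors thus stood above the ligands, while the neighbours Aplnr and Apln, and Angpt1 and Angpt2, overlapped in range. The order was the same in WT LPS and Adm+/- PBS lungs. In Adm+/- LPS lungs Aplnr, at 50.9 ± 5.92 CPM per kb, stood above Tek, at 30.6 ± 3.78, with no overlap between them. There Aplnr overlapped the range of Tie1, at 61.0 ± 5.78, and Tek that of Apln, at 28.3 ± 4.26.

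**Figure D1:**
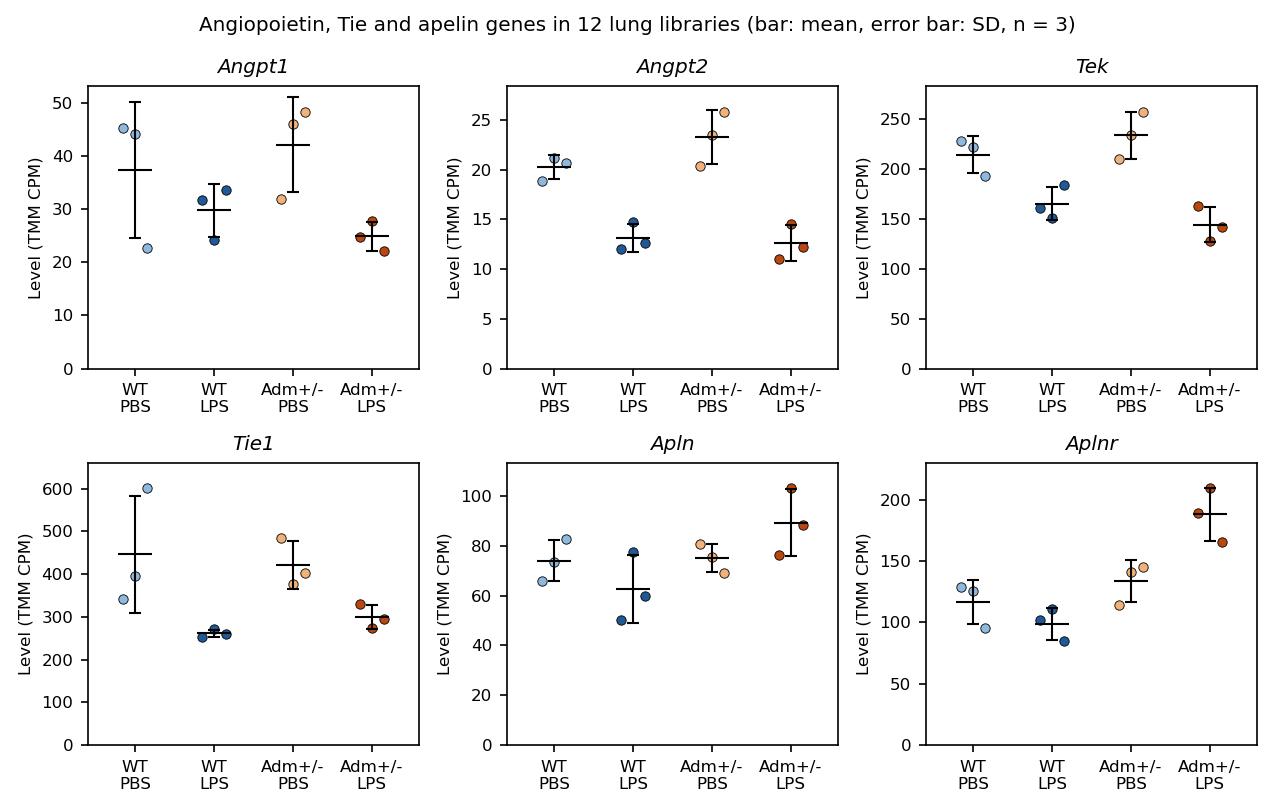
Level of each of the 6 genes in every library, in CPM after TMM scaling (y axis, from 0), by genotype and treatment (x axis); points are libraries, the long bar is the mean and the error bar the SD of 3. The 3 Angpt2 values of each LPS group lie below all PBS values, and the 3 Aplnr values of Adm+/- LPS lie above the other 9.

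LPS was compared with PBS in WT lungs to ask how the pathways respond with both Adm copies present. Angpt2 and Tie1 fell, Tek was lower but under the fold threshold, Angpt1, Apln and Aplnr did not pass the test, and no member rose. The 2 of 6 genes that were called, both lower, stand beside 17.6% of all tested genes called in this comparison, with 10.5% called higher and 7.09% called lower, where called means a Benjamini-Hochberg adjusted p under 0.05 over all tested genes and an absolute log2 fold change over 0.5. All 6 fitted changes were negative, with a median of -0.35 beside 0.01 over all tested genes, and 3 of 6 had non-overlapping groups beside 36.2% of all tested genes.

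Among the ligands, Angpt2 stood at 18.9, 21.2 and 20.7 CPM in WT PBS and at 12.0, 14.7 and 12.7 CPM in WT LPS. Every LPS library was below every PBS library, and the fitted level fell by 35.1% (log2 fold change -0.62, SE 0.14, adjusted p = 0.011). Mcph1, the gene around it, also fell, by 0.63 on the log2 scale (adjusted p = 0.015). Angpt1 stood at 45.3, 44.1 and 22.6 CPM in WT PBS and at 31.7, 24.1 and 33.6 CPM in WT LPS. The groups overlapped because of the PBS library 5, which was the lowest of all WT libraries, and the change did not pass (-0.33, SE 0.25, adjusted p = 0.360). Without that library alone it was -0.59 and still did not pass (adjusted p = 0.054), and without it and the Adm+/- PBS library 6 together it was -0.59 with an adjusted p of 0.019. Without the WT PBS library 3 the change was smaller, at -0.17, and did not pass. The apelin ligand Apln stood at 65.9, 73.5 and 82.7 CPM in WT PBS and at 50.3, 77.6 and 60.0 CPM in WT LPS, which overlapped (-0.24, 95% CI -0.60 to 0.11, adjusted p = 0.302).

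Among the receptors, Tie1 stood at 341, 397 and 601 CPM in WT PBS and at 252, 271 and 261 CPM in WT LPS. The LPS libraries were close together and below all PBS libraries, and Tie1 fell by 41.5% (-0.77, SE 0.18, adjusted p = 0.013). Its highest value, 601 CPM, was in the PBS library 5, without which the change was -0.50 (adjusted p = 0.017). Tek stood at 228, 222 and 193 CPM in WT PBS and at 161, 151 and 183 CPM in WT LPS. These groups did not overlap either, but the change of -0.38 (SE 0.12, adjusted p = 0.0497) was under the fold threshold. Aplnr stood at 129, 125.5 and 95.8 CPM in WT PBS and at 102, 111 and 84.9 CPM in WT LPS, and the groups overlapped (-0.24, 95% CI -0.57 to 0.09, adjusted p = 0.275). Leaving out 1 library at a time gave -0.365 to -0.14 for Aplnr. The calls of Angpt2 and Tie1 were both lost without the WT LPS library 9, at -0.57 (adjusted p = 0.053) and -0.75 (adjusted p = 0.054), and in a fit of the 6 WT libraries alone, at -0.63 (adjusted p = 0.0501) and -0.77 (adjusted p = 0.065).

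LPS was then compared with PBS in Adm+/- lungs. Angpt1, Angpt2 and Tek fell, Tie1 and Apln did not pass the test, and Aplnr was higher in every LPS library but just under the fold threshold. The 3 called genes, all lower, stand beside 25% of all tested genes called, 12.8% higher and 12.2% lower. The median of the 6 fitted changes was -0.59 beside -0.01 over all tested genes, and 5 of 6 had non-overlapping groups beside 53.7% of all tested genes.

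Angpt2 stood at 20.4, 23.5 and 25.8 CPM in Adm+/- PBS and at 11.03, 14.6 and 12.2 CPM in Adm+/- LPS. The groups were well apart, and Angpt2 fell by 45.9% (-0.89, SE 0.14, adjusted p = 9.3e-04), while Mcph1 fell by 0.72 on the log2 scale (adjusted p = 0.005). Angpt1 stood at 31.8, 46.0 and 48.3 CPM in Adm+/- PBS and at 24.6, 27.7 and 22.1 CPM in Adm+/- LPS. Every LPS library was lower, and Angpt1 fell by 41.01% (-0.76, SE 0.25, adjusted p = 0.038). That call was lost without the Adm+/- PBS library 7 (adjusted p = 0.102) or 8 (0.120), or without the Adm+/- LPS library 1 (0.0979), 2 (0.0619) or 12 (0.124), with log2 fold changes from -0.65 to -0.85. Apln stood at 80.7, 75.4 and 69.2 CPM in Adm+/- PBS and at 76.4, 103 and 88.3 CPM in Adm+/- LPS. These overlapped, and the change was 0.25 (95% CI -0.11 to 0.60, adjusted p = 0.271).

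Tek stood at 210, 234 and 257 CPM in Adm+/- PBS and at 163, 128 and 142 CPM in Adm+/- LPS. It fell by 38.3% with no overlap (-0.70, SE 0.12, adjusted p = 0.002). Tie1 stood at 484, 376 and 402 CPM in Adm+/- PBS and at 330, 274 and 295 CPM in Adm+/- LPS, again with no overlap, but the change of -0.49 (SE 0.18, adjusted p = 0.060) did not pass. Aplnr stood at 114, 141.5 and 145.5 CPM in Adm+/- PBS and at 189, 210 and 166 CPM in Adm+/- LPS. Every LPS library was above every PBS library, and the change was 0.49 (SE 0.15, 95% CI 0.16 to 0.82, adjusted p = 0.029), which missed the fold threshold. It passed with size factors of the relative log expression (RLE) kind and with DESeq2, both at 0.50 (adjusted p = 0.025 and 0.009). Leaving out 1 library at a time in edgeR gave 0.38 (without the Adm+/- PBS library 6) to 0.58, with an adjusted p of up to 0.119.

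The genotypes were compared within each treatment. In PBS lungs no member was called, and 0% of all tested genes were called by edgeR, DESeq2 or limma-voom, although 344 genes (2.17%) had an unadjusted p under 0.05 by edgeR, none of them a member. The median difference of the 6 genes was 0.15 beside -0.01 over all tested genes, and every member overlapped between genotypes, where 4.99% of all tested genes did not. The values for Adm+/- minus WT ran from -0.09 for Tie1 to 0.20 for Angpt2 and Aplnr, with 95% CI bounds of -0.48 to 0.31, -0.11 to 0.51 and -0.14 to 0.53.

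In LPS lungs Aplnr was higher in Adm+/- than in WT mice, by 1.90-fold. It stood at 189, 210 and 166 CPM in Adm+/- LPS against 102, 111 and 84.9 CPM in WT LPS, with no overlap. The log2 difference was 0.92 (SE 0.15, 95% CI 0.59 to 1.26, adjusted p = 0.011), and it was the 1 member called, beside 2.05% of all tested genes called, 0.327% higher and 1.72% lower. The call was lost without the Adm+/- LPS library 1 (0.92, adjusted p = 0.054) or 2 (0.84, adjusted p = 0.069). Apln had 76.4, 103 and 88.3 CPM in Adm+/- LPS against 50.3, 77.6 and 60.0 CPM in WT LPS. The ranges overlapped through the WT library 10 alone, and the difference of 0.51 (SE 0.16, adjusted p = 0.142) did not pass, whereas without that library it was 0.70 (adjusted p = 0.036). Tie1 was the other gene with non-overlapping groups, at 330, 274 and 295 against 252, 271 and 261 CPM, but its difference of 0.20 (SE 0.18, adjusted p = 0.750) was small. Non-overlap was seen in 2 of 6 members and in 24.6% of all tested genes, and the median difference was 0.07 beside 0.00. For Angpt1, Angpt2 and Tek the differences were -0.26, -0.06 and -0.20 (adjusted p = 0.762, 0.944 and 0.555). Skeletal muscle genes were higher in each WT LPS library than in any other library and squamous genes in 2 of the 3, and their part in these genotype differences was not tested.

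The difference between the 2 LPS responses, fitted as an interaction, was called for no member and for 0.145% of all tested genes, with 1247 genes (7.85%) at an unadjusted p under 0.05. Aplnr was the 1 member among those, with a response that was higher in Adm+/- by 0.73 on the log2 scale (SE 0.21, 95% CI 0.26 to 1.20, unadjusted p = 0.005, adjusted p = 0.397). Apln followed at 0.49 (95% CI -0.01 to 0.99, adjusted p = 0.651) and Tie1 at 0.28 (-0.28 to 0.84, 0.950), which was 0.017 without the WT PBS library 5. Angpt1, Angpt2 and Tek had lower values in Adm+/-, at -0.43 (95% CI -1.20 to 0.34, adjusted p = 0.918), -0.26 (-0.70 to 0.18, 0.901) and -0.32 (-0.70 to 0.06, 0.736), and the value of Angpt1 was -0.17 without the WT PBS library 5. The falls of Angpt1 and Tek that were called in Adm+/- lungs alone, and that of Tie1 called in WT lungs alone, were thus not shown to differ between the genotypes.

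Because 5 of the 6 genes are largely endothelial, their levels were also set against 15 pan-endothelial marker genes, which were detected in every library. The mean log2 CPM of these genes was 7.52 in WT PBS, 7.25 in WT LPS, 7.56 in Adm+/- PBS and 7.34 in Adm+/- LPS, so the LPS groups were lower. In WT lungs 3 of the 15 fell (Kdr, the main VEGF receptor, by 0.79 on the log2 scale, Clec14a by 0.52 and the transcription factor Sox17 by 0.83) and none rose. In Adm+/- lungs 4 fell (Kdr, Clec14a, Egfl7 and Sox17, with -1.11, -0.82, -0.54 and -1.34) and the guidance receptor Robo4 rose by 0.68. The list medians were -0.25 and 0.00.

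Relative to this endothelial mean, Angpt2 was at -3.18 ± 0.06 log2 units in WT PBS and -3.53 ± 0.12 in WT LPS, and at -3.02 ± 0.19 in Adm+/- PBS and -3.69 ± 0.26 in Adm+/- LPS. It remained lower in every LPS library than in any PBS library. Aplnr was at -0.66 ± 0.29, -0.62 ± 0.20, -0.51 ± 0.23 and 0.21 ± 0.18 in the same order. The 3 Adm+/- LPS libraries, from 0.08 to 0.41, were the only ones above the endothelial mean for this gene. Tek was at 0.22 ± 0.18 and 0.12 ± 0.15 in WT PBS and LPS, which overlapped, and at 0.30 ± 0.17 and -0.17 ± 0.12 in Adm+/- PBS and LPS, which did not. Tie1 went from 1.24 ± 0.37 to 0.78 ± 0.02 in WT and from 1.15 ± 0.15 to 0.88 ± 0.08 in Adm+/- lungs, again without overlap. Angpt1 was at -2.36 ± 0.61 and -2.36 ± 0.28 in WT PBS and LPS, and at -2.19 ± 0.36 and -2.71 ± 0.18 in Adm+/- lungs, with overlap in both. Apln was at -1.31 ± 0.11 and -1.30 ± 0.27 in WT, which overlapped. In Adm+/- lungs it was at -1.33 ± 0.11 and -0.87 ± 0.28, higher in every LPS library. In a fit with libraries scaled to this list, Angpt2 kept its call in Adm+/- lungs but not in WT lungs (-0.35, adjusted p = 0.097), and Angpt1 lost its call in Adm+/- lungs (-0.54, adjusted p = 0.139). Tie1 in WT lungs and Tek in Adm+/- lungs were then under the fold threshold (-0.49 and -0.48, adjusted p = 0.035 and 0.013), and Aplnr in Adm+/- lungs passed at 0.71 (adjusted p = 0.008). That scaling shifts all genes by about the same amount, and it moved the median of all tested genes to 0.28 in WT and 0.21 in Adm+/- lungs. The distance of a gene from those medians is thus nearly fixed in advance and tests nothing.

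**Figure D2:**
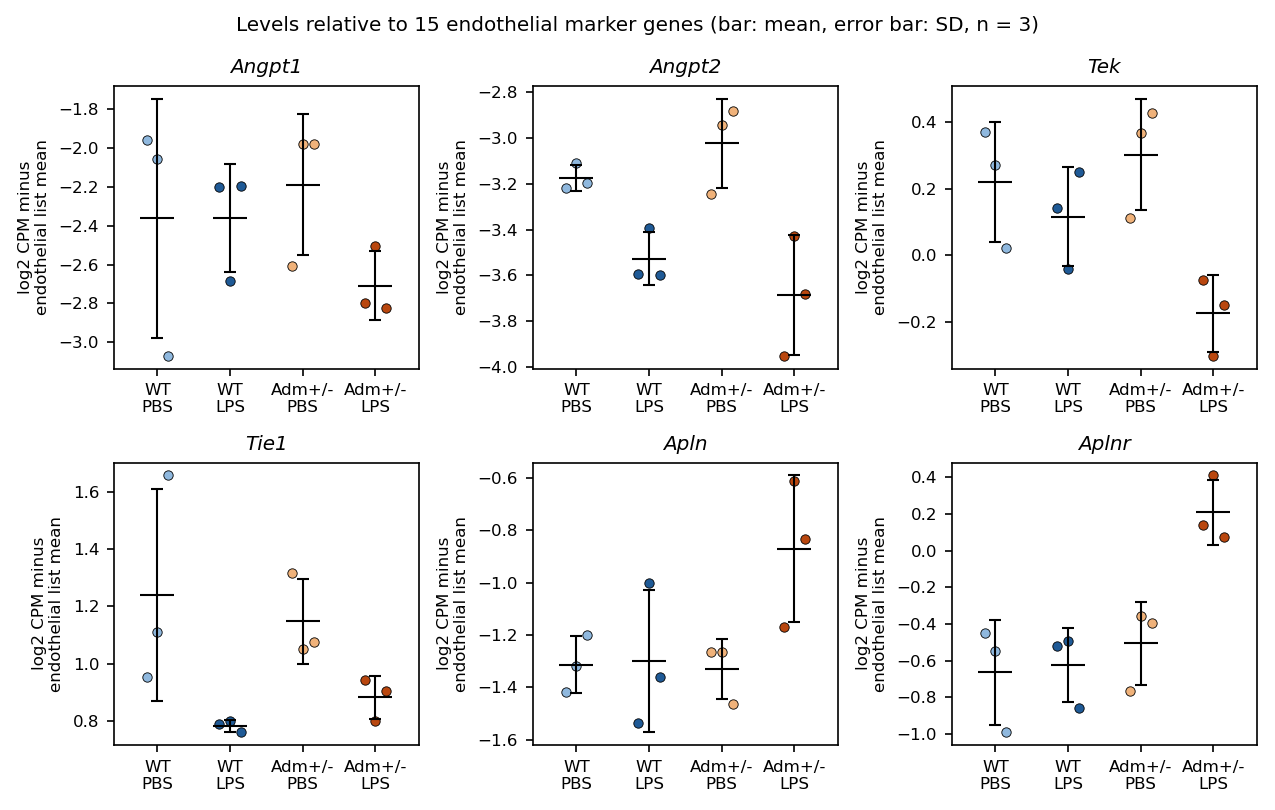
Level of each of the 6 genes minus the mean of 15 endothelial marker genes in the same library (y axis, log2 CPM), by group (x axis); points are libraries, the long bar is the mean and the error bar the SD of 3. Aplnr lies above the endothelial mean in the 3 Adm+/- LPS libraries and below it in the other 9, and Angpt2 is lower in each LPS library than in all PBS libraries.

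Ratios within a library compare partners of a pathway without regard to depth. The log2 ratio of Angpt2 to Angpt1 was -0.81 ± 0.60 in WT PBS, -1.17 ± 0.40 in WT LPS, -0.84 ± 0.17 in Adm+/- PBS and -0.98 ± 0.16 in Adm+/- LPS (SD, n = 3), and the groups overlapped within each genotype. The highest ratio, -0.13, was in the WT PBS library 5, where per kilobase Angpt2 (5.61 CPM per kb) stood above Angpt1 (4.34). Tek to Tie1 was -1.02 ± 0.55, -0.67 ± 0.17, -0.84 ± 0.31 and -1.06 ± 0.04 in the same order. The LPS groups of the 2 genotypes did not overlap, with -0.84 to -0.51 in WT and -1.10 to -1.02 in Adm+/- lungs. The Adm+/- LPS range lay within that of WT PBS, -1.64 to -0.58. No test was made of the ratios, and 24.6% of all tested genes did not overlap between the genotypes in LPS. Apln to Aplnr was -0.65 ± 0.39, -0.68 ± 0.29, -0.83 ± 0.29 and -1.08 ± 0.20, and all groups overlapped. Ratios of CPM without length are comparable between libraries but not between genes.

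**Figure D3:**
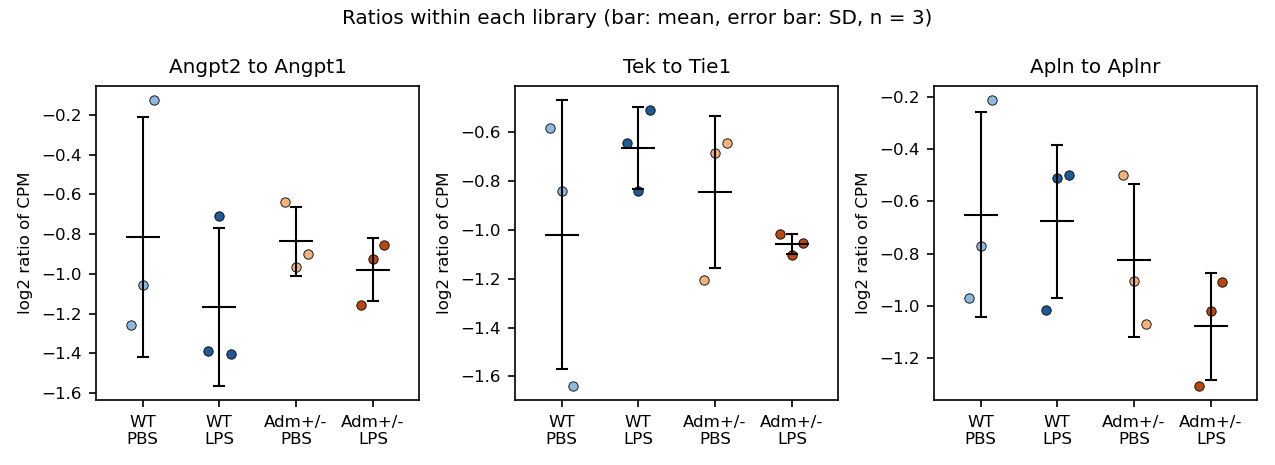
Log2 ratio of CPM of 2 partner genes within each library (y axis), for Angpt2 to Angpt1, Tek to Tie1 and Apln to Aplnr, by group (x axis); points are libraries, the long bar is the mean and the error bar the SD of 3. The WT PBS libraries spread most, and the only LPS ratios that do not overlap between genotypes are those of Tek to Tie1.

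Around the 6 genes, 32 further genes of the pathways were examined, of which 31 were tested. In WT lungs 2 rose and 2 fell (median -0.01 beside 0.01), where 10.5% and 7.09% of all tested genes did. In Adm+/- lungs 7 rose and 2 fell (median 0.17 beside -0.01), where 12.8% and 12.2% did. These shares over all tested genes also stand beside the LPS counts of every other list described here. None of the 31 genes was called between the genotypes in either treatment or for the difference in response. Of the other ligands, Apela, a second ligand of Aplnr, averaged 0.167 CPM and was not tested, and Angpt4, a further Tek ligand, averaged 1.48 CPM and was not called in any comparison.

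Of 15 partners and signalling genes of the Tie receptors, 1 rose and 1 fell in WT lungs, and 3 rose and 2 fell in Adm+/- lungs. Dok2, an adaptor that docks on Tek, rose in both, by 0.89 and 0.70 on the log2 scale (adjusted p = 0.007 and 0.0145). Grb14, an adaptor of receptor tyrosine kinases, fell in both, by 0.79 and 1.36 (adjusted p = 0.028 and 0.001). In Adm+/- lungs Tnip2, an inhibitor of nuclear factor kappa B that binds Tek, rose by 1.08 (adjusted p = 0.002) and the phosphoinositide 3-kinase subunit Pik3r1 by 0.51 (adjusted p = 0.011), while the adaptor Grb7 fell by 0.65 (adjusted p = 0.029). Dok2 is also expressed by leukocytes, whose 8 marker genes summed to 85.9 to 206.5 CPM in the PBS libraries and to 1161 to 2085 CPM in the LPS libraries, 6 of 8 being called higher in each genotype. The part of these cells in the rise of Dok2 was not tested. Ptprb, the vascular phosphatase that restrains Tek, had -0.23 in WT and -0.42 in Adm+/- lungs (adjusted p = 0.236 and 0.036), both under the fold threshold.

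Of 8 genes of apelin processing and receptor signalling, 1 rose in WT lungs (Arrb2, a beta-arrestin, by 0.81, adjusted p = 0.006) and 2 rose in Adm+/- lungs. Furin, a protease that matures peptide hormones, was among them, with a rise of 0.76 (adjusted p = 0.002). Of 7 flow, hypoxia and endothelial transcription factors, 1 fell in WT lungs, the proliferation factor Foxm1 by 0.999 (adjusted p = 0.017). In Adm+/- lungs 2 rose, Hif1a by 1.26 (adjusted p = 0.002) and Gata2 by 0.89 (adjusted p = 5.5e-04), and Foxm1 had -0.67 (adjusted p = 0.060). The angiopoietin-like genes, 7 secreted proteins that resemble the angiopoietins, had medians of -0.25 and -0.33. Angptl1 rose in WT lungs by 0.89 and fell in Adm+/- lungs by 0.64, and Angptl6 fell in Adm+/- lungs by 1.01.

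**Figure D4:**
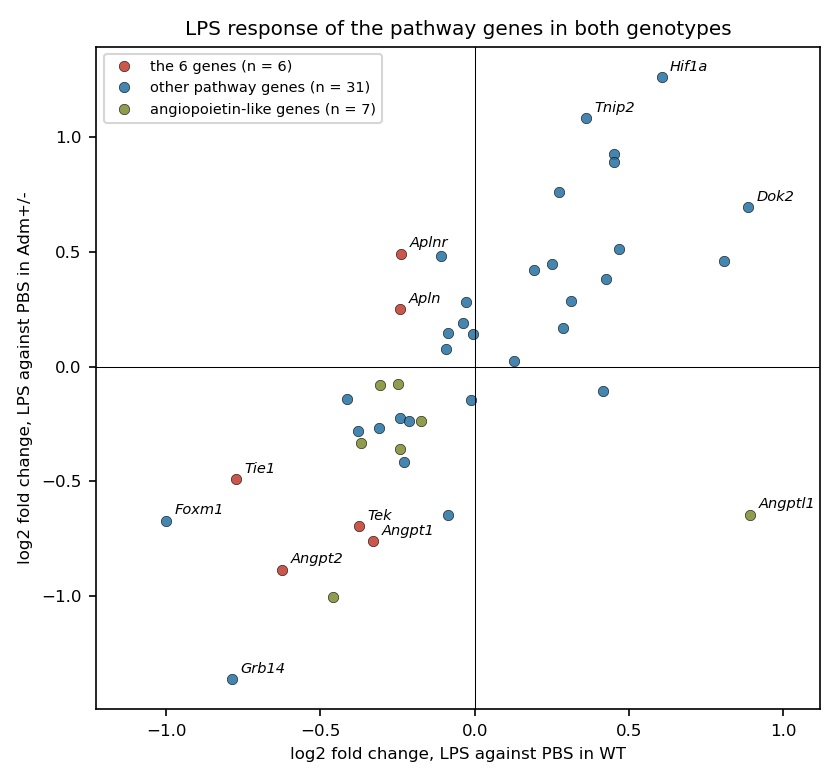
Log2 fold change for LPS against PBS in WT (x axis) and in Adm+/- lungs (y axis) of the 6 genes, of the 31 other pathway genes tested and of 7 angiopoietin-like genes. Angpt1, Angpt2, Tek and Tie1 lie below 0 on both axes, Apln and Aplnr are below 0 in WT and above 0 in Adm+/- lungs without passing the threshold, and Angptl1 lies above 0 in WT and below 0 in Adm+/- lungs.

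The capillary cells that make and receive apelin were described by lists of marker genes. Of 7 aerocyte genes, Nckap5 fell in WT lungs (-0.81) and Nckap5 and Chst1 fell in Adm+/- lungs (-0.79 and -0.96), with list medians of -0.31 and -0.35. Of 7 general capillary genes, the lipase gene Lpl rose in WT lungs (0.84), while Lpl and Gpihbp1, its anchor on endothelium, rose in Adm+/- lungs (0.95 and 0.59) and Hpgd, a prostaglandin-degrading enzyme, fell (-1.21). The list medians were -0.02 and 0.14. Of 6 tip cell genes, Pgf, a growth factor of the VEGF family, rose in both genotypes (0.94 and 2.21), Esm1 rose in Adm+/- lungs (1.03) and the Notch ligand Dll4 fell in WT lungs (-0.61). Of the 4 adhesion genes of inflamed endothelium, Sele, Selp and Icam1 rose in WT lungs by 3.35, 5.00 and 0.92, and with Vcam1 they rose in Adm+/- lungs by 5.58, 7.46, 2.20 and 1.04. The WT LPS libraries 9, 10 and 11 were unlike, with summed levels of 767.6, 627.9 and 309.7 CPM. The last lay within the WT PBS range of 251.7 to 353.3 CPM. Sele was higher in Adm+/- than in WT lungs after LPS by 2.52 (adjusted p = 0.039).

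Cells that may supply Angpt1 were described in the same way. Of 9 pericyte genes, 2 fell in WT lungs (Notch3 and Cox4i2) and 1 rose in Adm+/- lungs (Lamc3), with medians of -0.40 and -0.10. Their summed level was 960 to 1440 CPM in WT PBS, 819 to 856 in WT LPS, 989 to 1280 in Adm+/- PBS and 876 to 1023 in Adm+/- LPS. The sums were thus lowest in the WT LPS group. Platelets also carry Angpt1, and the summed level of 10 platelet genes went the other way, from 51.4 to 55.8 CPM in WT PBS to 78.3 to 90.8 in WT LPS and from 45.1 to 49.98 CPM in Adm+/- PBS to 59.7 to 93.1 in Adm+/- LPS, with 1 and 3 of 10 called higher. Of 9 fibroblast genes, 2 rose and 2 fell in WT lungs and 3 fell in Adm+/- lungs, whereas none of 6 smooth muscle genes was called in either genotype. The 6 lymphatic endothelial genes, a vessel type that also expresses Tie receptors, had 3 called higher in WT and 2 in Adm+/- lungs. Markers of the lung epithelium were present throughout, with 1 of 5 type I cell genes higher in WT and 2 in Adm+/- lungs, and 0 of 6 and 1 of 6 type II cell genes. Of 8 hypoxia response genes 2 rose and 1 fell in WT lungs, and 3 rose and 1 fell in Adm+/- lungs. The skeletal muscle list had 10 of 10 genes called higher in WT lungs and 1 of 10 in Adm+/- lungs, and the squamous list 4 of the 4 tested in WT lungs and none in Adm+/- lungs. The part of any of these cells in the changes of the 6 genes was not tested.

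For each of the 6 genes, the 3 tested genes with the most similar pattern were found by Pearson's r of log2 CPM over the 12 libraries, which includes the differences between the 4 groups and is given as a description. For Angpt1 these were Cdk19 (r = 0.981), Fut8 (0.973) and Arhgap32 (0.966), and for Angpt2 they were Cdk2 (0.977), Gorab (0.974) and Dpyd (0.974). Tek was most like Cacnb2 (0.984), Dach1 (0.982) and Nxpe4 (0.979). Tie1 was most like Cdr2l (0.987), Sema3g (0.981) and Nsmf (0.98). For Apln the values were lower, with Bmper (0.909), Smpd1 (0.901) and Cnnm2 (0.894), and for Aplnr they were Arhgap35 (0.951), Ccl22 (0.948) and Srgap1 (0.939). None of these genes belonged to a marker list used here.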

How the data were processed

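RNA from 12 whole lungs was sequenced, 1 library per mouse, so p-values measure the spread between mice. The authors trimmed the reads with Trim Galore, aligned them to mm10 with HISAT2 and counted them per Gencode gene with featureCounts, and they deposited raw counts; the annotation release and strand option are not given in the sources used here. Counts were analysed in R 4.3.3 with edgeR 4.0.16: protein-coding genes passing filterByExpr, TMM scaling, a quasi-likelihood fit of all 4 groups (8 residual degrees of freedom), and a two-sided test of each contrast. Genes were called at an adjusted p under 0.05 over all 15885 tested genes and an absolute log2 fold change over 0.5. Log2 CPM used a prior count of 2. Exon lengths came from Gencode M21, which covered 99.7% of genes. DESeq2 1.42.0, limma 3.58.1, RLE size factors, other filters and omitted libraries were alternatives. The fit was tested on simulated data.

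The named genes are the 6 genes, Adm, genes overlapping a member, called genes of the lists with the highest mean CPM (where none was called, the 2 highest), and the 3 most similar genes per member. Ptprb and Gm26917, and Foxm1 in Adm+/- lungs, fall outside this rule and were named after their values were seen. Members and lists were chosen with earlier results of these data known. No 2 libraries of a group were identical, and every one of the 12 same-group pairs differed by more than counting noise (chi-square divided by its degrees of freedom, 9.87 to 110). Reads carried no molecular identifiers, so low counts are limited by counting error and by this spread. For 1 list, a gene was counted but its values are not reported here.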

Additional observations from a re-analysis of the deposited data

Results flagged for a closer look

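Angptl1 encodes a secreted angiopoietin-like protein. It was flagged because every LPS library lay above all PBS libraries in WT and below all of them in Adm+/- lungs. The tested genes of all lists except the skeletal muscle and squamous ones were searched for this pattern. It is thus how the gene was chosen, and the p-values below come from the same data. Non-overlapping groups alone were seen in 36.2% of all tested genes in WT and 53.7% in Adm+/- lungs. The share with opposite directions was not computed. The level of Angptl1 was 3.57, 2.48 and 2.04 CPM in WT PBS, 4.84, 5.24 and 5.10 CPM in WT LPS, 3.21, 4.02 and 4.18 CPM in Adm+/- PBS and 2.24, 2.39 and 2.67 CPM in Adm+/- LPS. By edgeR's quasi-likelihood test it rose by 0.89 (SE 0.21) on the log2 scale in WT (adjusted p = 0.013) and fell by 0.64 (SE 0.21) in Adm+/- lungs (adjusted p = 0.038). The difference between the responses was -1.54 (SE 0.30, unadjusted p = 2.7e-04) and did not pass over all tested genes (adjusted p = 0.104). After LPS it was lower in Adm+/- than in WT lungs by a log2 fold change of -1.05 (adjusted p = 0.027). Skeletal muscle genes summed to 737.5 to 2037 CPM in WT LPS and to 31.04 to 56.66 CPM in Adm+/- LPS libraries. Squamous genes summed to 23.12 to 2743 CPM and to 2.815 to 36.95 CPM. The part of such tissue in the Angptl1 values was not tested.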

How the results depend on the processing

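Of 884 values recomputed under alternatives, 807 kept their direction and their side of the threshold, or stayed within 1.5 times for counts. Many could hardly change, such as a comparison refitted without a library of the groups not compared, or a ratio with another prior count. The share is thus no measure of robustness. A test against a log2 fold change of 0.5 itself (glmTreat) left 1001 genes in WT, 1695 in Adm+/-, 13 for the difference and 133 for the genotypes in LPS, and took away the calls of Angpt2 (-0.62, adjusted p = 0.422) and Tie1 (-0.77, 0.208) in WT, of Angpt1 (-0.76, 0.287) and Tek (-0.70, 0.133) in Adm+/-, and of Aplnr between genotypes in LPS (0.92, 0.126). With no fold threshold Tek in WT (-0.38) and Aplnr in Adm+/- (0.49) were called. RLE and DESeq2 called Aplnr in Adm+/- at 0.50. DESeq2 called 168 genes for the difference and 803 for the genotypes in LPS, and limma-voom 1 for the difference. A fit of the 6 libraries compared called 1152 genes in WT and lost Angpt2 (-0.63) and Tie1 (-0.77). Scaling to the endothelial list turned Apln (0.029) and Aplnr (0.03) in WT and Apln between genotypes in PBS (-0.018), lost Angpt2 (-0.35) and Tie1 (-0.49) in WT and Angpt1 (-0.54) and Tek (-0.48) in Adm+/-, added Aplnr in Adm+/- (0.71), called 500 genes for the genotypes in LPS, and moved the called genes from 1664 higher and 1127 lower to 3455 and 447 in WT, and from 2035 and 1933 to 3230 and 1003 in Adm+/-. With all annotated genes Apln between genotypes in PBS was -0.002. Without the WT PBS library 5 and the Adm+/- PBS library 6 together, Angpt1 in WT was called (-0.59), Tie1 between genotypes in PBS was 0.082 and 548 genes were called for the genotypes in LPS.

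Leaving out each library in turn gave 1443 to 3074 called genes in WT, 3033 to 4503 in Adm+/-, 5 to 65 for the difference and 81 to 573 for the genotypes in LPS. For LPS in WT it gave -0.71 to -0.57 for Angpt2 and -0.94 to -0.50 for Tie1; for LPS in Adm+/- it gave -0.93 to -0.65 for Angpt1 and 0.38 to 0.58 for Aplnr, which was called without the Adm+/- PBS library 8 or LPS library 12. Between genotypes in LPS it gave 0.83 to 1.01 for Aplnr, 0.38 to 0.70 for Apln and -0.18 to 0.028 for Angpt2 (0.028 without the WT LPS library 10 and 0.027 without the Adm+/- LPS library 1). It also gave -0.39 to -0.17 for Angpt1, -0.29 to -0.11 for Tek and 0.12 to 0.26 for Tie1, none of them called. Between genotypes in PBS, leaving out each library gave 0.12 to 0.29 for Angpt2, 0.052 to 0.198 for Tek and 0.072 to 0.297 for Aplnr. It also gave -0.085 to 0.33 for Angpt1, -0.25 to 0.19 for Tie1 and -0.056 to 0.11 for Apln (-0.03 without the Adm+/- PBS library 6). Angpt1 and Tie1 turned without the WT PBS library 5. The causes were not tested. No paired analysis was possible because the replicate numbers are library numbers and the groups share none. For the difference in response it gave -0.60 to -0.17 for Angpt1 and 0.017 to 0.45 for Tie1, neither called. Apln, also not called, had -0.43 (without the WT LPS library 10) to -0.11 (without the WT LPS library 9) for LPS in WT and 0.13 (without the Adm+/- LPS library 2) to 0.35 in Adm+/-. With 3 mice per group, the width of the confidence intervals given limits what could be detected.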
